A study of Saccharomyces cerevisiae with 12 samples.

Results

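The data analysed are the transcript levels of 41 nuclear genes for the mitochondrial respiratory chain, cytochrome *c* and the ATP synthase of *Saccharomyces cerevisiae*. They were chosen as the rows of the deposited expression table whose gene name is on a list of these components, out of 7126 features in all, and every listed name matched a row. RNA was sequenced from 12 cultures in 4 groups of 3: the *RRD1* KO strain YSC6273-201925697 with rapamycin, the same strain without it, the wild-type strain BY4730 with rapamycin, and BY4730 without it. All cultures grew at log phase in YPD, a rich glucose medium, and treated cultures received 100 nM rapamycin, the inhibitor of the TOR kinase, for 50 min. *RRD1* encodes an activator of PP2A-type phosphatases that acts in the TOR pathway. The knockout is 1 purchased strain, so whatever else differs between it and BY4730 cannot be told apart from the loss of *RRD1*. Libraries are named by strain, treatment and the number in their title, which is 2, 4 or 6 for treated and 1, 3 or 5 for untreated cultures.

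The respiratory chain passes electrons through complexes of the mitochondrial inner membrane to oxygen, and the ATP synthase uses the proton gradient that complexes III and IV build. Budding yeast has no proton-pumping complex I, and NADH is oxidized instead by single-polypeptide dehydrogenases, Ndi1 on the matrix side and Nde1 and Nde2 on the outer side of the inner membrane. Succinate enters through complex II, and cytochrome *c* carries electrons between complex III and complex IV. On glucose yeast ferments, and many of these genes are held at low levels by glucose repression and induced through the Hap complex, a CCAAT-binding factor whose limiting subunit is Hap4. Oxygen sets a pair of choices: *COX5A* and *CYC1* encode the aerobic isoforms of a complex IV subunit and of cytochrome *c*, while *COX5B* and *CYC7* encode the isoforms known from hypoxic cells.

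Levels are FPKM, fragments per kilobase of transcript scaled to the mapped reads of the library, and comparisons were made on log2(FPKM + 1) with limma over the 6497 features whose mean FPKM reached 1. Calls are those with an adjusted *p* under 0.01 (Benjamini-Hochberg), and every adjusted *p* below comes from this limma fit. Fold changes are on this scale and understate those of low genes. The depth implied by the steps of low FPKM values, within a search range set in advance, was 8440000 to 11670000 mapped reads per library. All 41 members passed the filter on low values. FPKM is a share of the sequenced RNA, so a change in RNA per cell and a change in 1 gene's share of it cannot be told apart. As a check of the labels, *RRD1* had 0, 0 and 0 FPKM in the treated knockout and 0, 0.103 and 0.203 FPKM in the untreated knockout, against 81.9, 67.2 and 85.3 FPKM in the treated wild type and 47.7, 47.5 and 72.3 FPKM in the untreated wild type. All libraries carried **a**-cell transcripts and little of the alpha-cell genes, with *STE3* at most 11.2 FPKM and *MF(ALPHA)1* at most 1.87 FPKM. The **a**-factor gene *MFA1* was lower in the knockout libraries, with 320728, 131465 and 125098 FPKM in the treated knockout against 497429, 629233 and 451682 FPKM in the treated wild type, and 198870.0, 67169.9 and 88463 FPKM in the untreated knockout against 202270.0, 261288 and 229939 FPKM in the untreated wild type. *MFA1* was called in neither strain comparison (limma adjusted *p* = 0.026 with rapamycin and 0.20 without it). Knockout libraries 1 and 2 stood above the other knockout libraries for *MFA1* and for the pheromone receptor *STE2*, and counts below are also given without them where the count changes by over 1.5 times.

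The levels of the 41 genes spanned a wide range, with a median over members of 328 FPKM in the mean of all libraries, against 61.0 FPKM over all tested features. The lowest was *NDE2* at 17.6 FPKM and the highest *ATP15* at 3843 FPKM. Levels of different genes are comparable here only with care, since Cufflinks corrects short transcripts by an effective length. The 11 members whose exons are shorter than 300 nt in R64 had mean levels of 366 to 3843 FPKM, and the other 30 had 17.6 to 558 FPKM. None of the 41 overlaps another gene of the R64 annotation, and 5 have a neighbor within 200 nt.

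Summarized by complex, the median of log2(FPKM + 1) over members was higher with rapamycin in both strains for all 7 classes, and no treated library of a strain fell to the level of its untreated libraries. For complex II the medians were 7.87, 7.80 and 7.86 in the treated knockout against 6.28, 5.90 and 6.18 in the untreated knockout, and 8.12, 8.13 and 8.18 in the treated wild type against 6.40, 6.61 and 6.87 in the untreated wild type. For the ATP synthase they lay much closer, at 8.58, 8.55 and 8.54 in the treated knockout against 8.06, 7.90 and 7.82 in the untreated knockout, and 8.74, 8.57 and 8.51 in the treated wild type against 8.41, 8.13 and 8.21 in the untreated wild type. The lowest treated wild-type library thus stood only just above the highest untreated one for the ATP synthase, whereas for complex II the gap was wide.

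**Figure D1:**
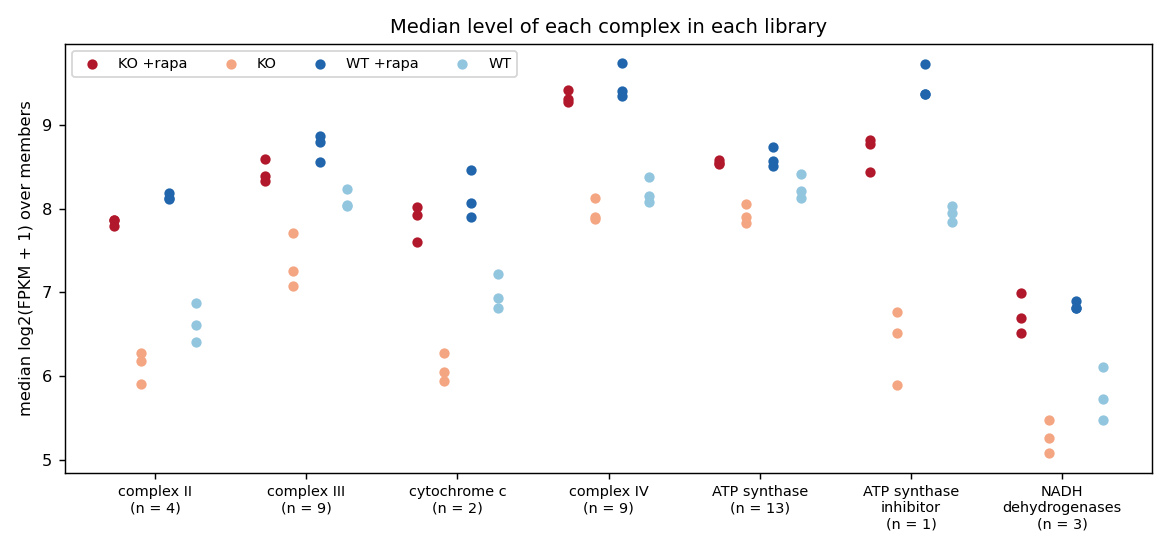
Median log2(FPKM + 1) over the members of each class (vertical axis) in each of the 12 libraries (1 point each), by class and group from left to right: treated knockout, untreated knockout, treated wild type, untreated wild type. The treated points lie above the untreated points of the same strain in every class, with a narrow gap for the ATP synthase in the wild type, where the lowest treated library is at 8.51 and the highest untreated one at 8.41.

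Most of the respiratory genes were higher with rapamycin in both strains. In the knockout 36 of the 41 members were called higher with rapamycin and 0 lower, where 36.4% of all tested features were called higher and 10.3% lower. In the wild type 25 members were called higher and 1 lower, where 35.9% of all tested features were called higher and 16.3% lower. With consecutive library numbers of a strain (1 and 2, 3 and 4, 5 and 6) as a block, chosen after the data were seen because these libraries deviated together, 37 members were called higher and 0 lower in the knockout, where 43.5% of all tested features were called higher and 13.6% lower, and 30 higher and 1 lower in the wild type, against 41.8% and 19.7%. Without the block, the same 25 genes were called higher in both strains, 11 were called in the knockout alone, 1 in the wild type alone and 4 in neither. A difference in call is no test of a difference in response, and that test called 0 members, or 1, *NDE2*, with the block. The median log2 fold change over members was 0.95 in the knockout and 0.75 in the wild type, against medians over all tested features of 0.34 and 0.29. Scaling each library by its median ratio moved the median of all features by 0.34 in the knockout and 0.28 in the wild type, to 0.00 and 0.01. With that scaling the median over members was 0.59 in the knockout and 0.46 in the wild type, 23 and 20 members were called higher, and *NDE1* was called lower in both strains. The share of all tested features called with that scaling is not given, here or for the classes below. The shares above belong to the unscaled values.

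**Figure D2:**
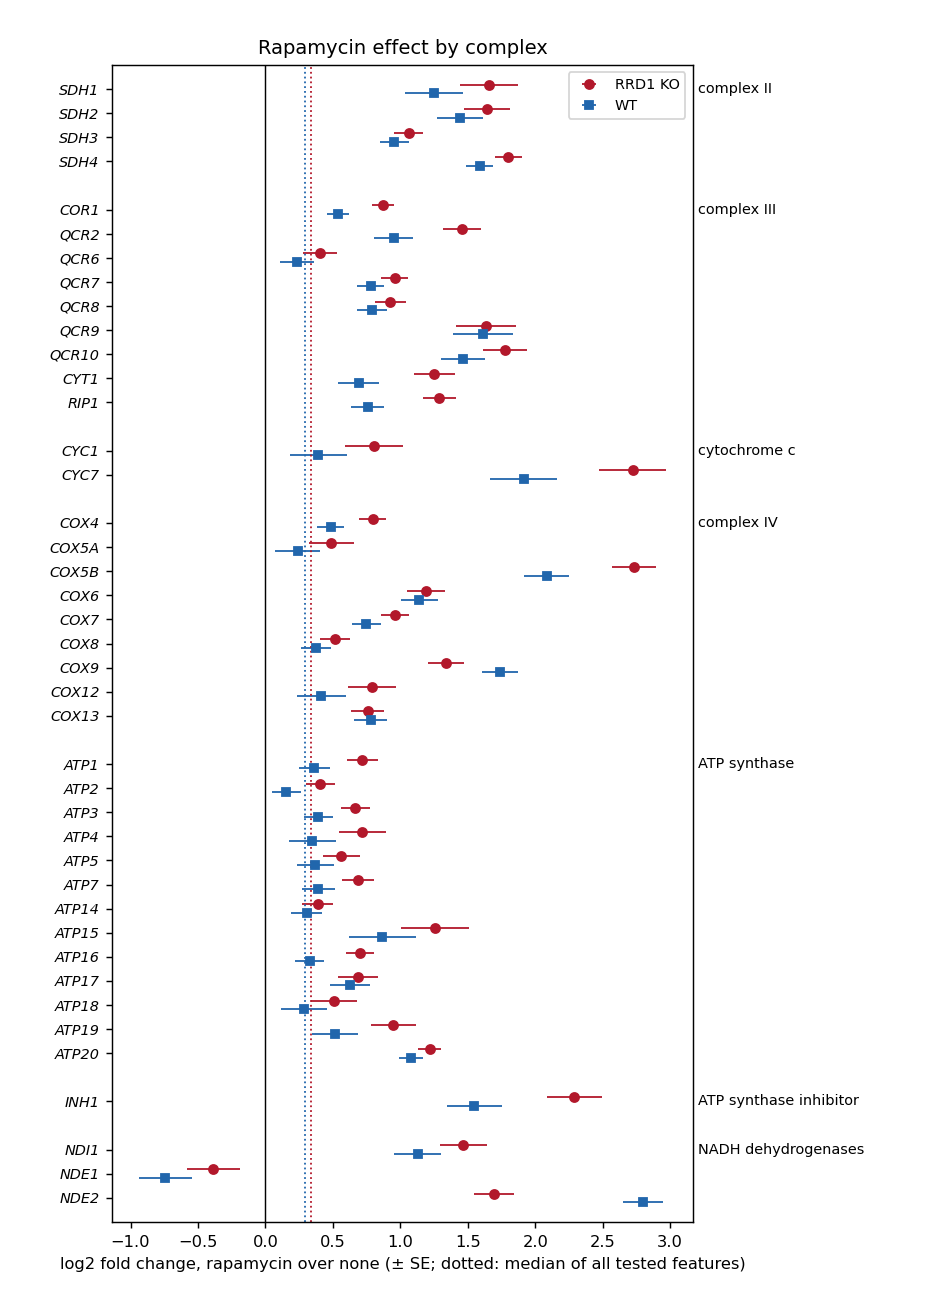
Log2 fold change (horizontal axis, ± SE) of each of the 41 members, listed by class, for rapamycin over none in the knockout (red circles) and in the wild type (blue squares); dotted lines mark the medians of all tested features, 0.34 and 0.29. *COX5B* and *CYC7* have the largest rises in the knockout (2.73 and 2.72) and *NDE2* and *COX5B* in the wild type (2.80 and 2.09), the 13 ATP synthase subunits all lie right of the dotted line in the knockout and 11 of them in the wild type, and *NDE1* is the only member left of 0.

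All 4 subunits of complex II, succinate dehydrogenase, were called higher in both strains, with a median log2 fold change of 1.65 in the knockout and 1.35 in the wild type. Of all tested features 36.4% were called higher in the knockout and 35.9% in the wild type. *SDH4*, a membrane anchor subunit, had 303, 293 and 301 FPKM in the treated knockout and 93.3, 77.4 and 85.9 FPKM in the untreated knockout, and 377, 340.5 and 372 FPKM in the treated wild type and 109.9, 119 and 131 FPKM in the untreated wild type. Treated and untreated libraries did not overlap in either strain, and the rise was 3.48-fold in the knockout (log2 1.80 ± 0.10, SE, limma adjusted *p* = 2.0e-07) and 3.01-fold in the wild type (log2 1.59 ± 0.10, adjusted *p* = 1.8e-07). The flavoprotein gene *SDH1* rose by 1.65 in log2 in the knockout and 1.25 in the wild type. The iron-sulfur subunit gene *SDH2* rose by 1.64 and 1.44, and the other anchor gene, *SDH3*, by 1.06 and 0.96. All 4 remained called in both strains with median-ratio scaling.

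Complex III, the cytochrome *bc*1 complex, had 8 of 9 members (88.9%) called higher in each strain. Over all tested features 36.4% were called higher in the knockout and 35.9% in the wild type. *QCR6*, an acidic accessory subunit, was called in neither strain. With median-ratio scaling the counts were 8 in the knockout and 6 in the wild type, where *COR1* and *CYT1* were lost, and the medians fell to 0.90 and 0.49, against 1.25 and 0.78 without it. *QCR9* and *QCR10*, both for small subunits, had the largest rises of the complex in both strains. *QCR9* had 1692, 1583 and 1565 FPKM in the treated knockout and 687, 461 and 439.8 FPKM in the untreated knockout, and 2071, 2428 and 2097 FPKM in the treated wild type and 511, 963 and 748 FPKM in the untreated wild type, a rise of 3.10-fold in the knockout and 3.06-fold in the wild type (limma adjusted *p* = 8.9e-05 and 7.5e-05). The untreated libraries of both strains were scattered for this gene, and none reached a treated library. *QCR10* rose by 1.77 in log2 in the knockout and 1.47 in the wild type. The genes of the catalytic subunits, *CYT1* for cytochrome *c*1 and *RIP1* for the Rieske iron-sulfur protein, rose by 1.25 and 1.29 in the knockout and by 0.69 and 0.76 in the wild type. The core subunit genes *COR1* and *QCR2* rose by 0.87 and 1.46 in the knockout and by 0.54 and 0.95 in the wild type, while *QCR7* and *QCR8* rose by 0.96 and 0.93 in the knockout and 0.78 and 0.79 in the wild type. *QCR6* had log2 fold changes of 0.40 in the knockout (adjusted *p* = 0.015) and 0.24 in the wild type (adjusted *p* = 0.12), and the wild-type value was -0.05 with median-ratio scaling.

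In complex IV, cytochrome *c* oxidase, 8 of 9 members (88.9%) were called higher in the knockout, against 36.4% of all tested features. In the wild type 6 (66.7%) were called higher, against 35.9%. *COX5A* and *COX5B* are counted as separate members. With median-ratio scaling 5 were called in the knockout, without *COX8*, *COX12* and *COX13*, and 5 in the wild type, without *COX4*, and the medians were 0.44 and 0.46, against 0.79 and 0.75 without that scaling. After *COX5B*, *COX9*, a small subunit, and *COX6*, a nuclear-encoded subunit whose gene is known to respond to heme and carbon source, had the largest rises. *COX9* had 2498, 2693 and 3074 FPKM in the treated knockout and 995, 1045 and 1226 FPKM in the untreated knockout, and 4482, 4729 and 4374 FPKM in the treated wild type and 1226, 1504 and 1359 FPKM in the untreated wild type. Its treated libraries stood well above the untreated ones in both strains, with log2 fold changes of 1.34 ± 0.13 in the knockout and 1.74 ± 0.13 in the wild type (SE, limma adjusted *p* = 8.7e-06 and 7.1e-07). *COX6*, *COX7*, *COX13* and *COX4* rose by 1.19, 0.96, 0.76 and 0.79 in the knockout and by 1.14, 0.75, 0.78 and 0.48 in the wild type. *COX8* and *COX12* rose in the knockout, by 0.52 and 0.79, and were not called in the wild type, with 0.37 and 0.41. With consecutive numbers as a block *COX12* was called in the wild type (adjusted *p* = 0.004). The call of *COX12* in the knockout was lost without knockout library 1, 3 or 6 (adjusted *p* 0.012 to 0.014).

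The ATP synthase had the smallest median change of the 7 classes in both strains, 0.69 in the knockout and 0.37 in the wild type, although the difference between classes was not tested. In the knockout 11 (84.6%) of its 13 subunit genes were called higher, against 36.4% of all tested features. In the wild type 3 (23.1%) were called higher, a smaller share than the 35.9% of all tested features. With consecutive numbers as a block 7 were called higher in the wild type, against 41.8% of all tested features. The block added *ATP5*, *ATP7*, *ATP15* and *ATP16* (adjusted *p* = 0.0023, 0.0058, 0.00085 and 0.0049). With median-ratio scaling 2 remained called in the knockout and 1 in the wild type, and the median log2 fold changes were 0.33 and 0.08. *ATP20*, for a subunit at the dimer interface, was called under both scales in both strains. It had 318, 301 and 342 FPKM in the treated knockout and 135, 137 and 139 FPKM in the untreated knockout, and 377, 382 and 363 FPKM in the treated wild type and 181, 184 and 165 FPKM in the untreated wild type, with log2 fold changes of 1.22 ± 0.09 in the knockout and 1.08 ± 0.09 in the wild type (SE, limma adjusted *p* = 9.0e-07 and 9.9e-07). Its 3 libraries of a group lay within a narrow range, and the treated and untreated groups were well apart. *ATP1* and *ATP2* encode the alpha and beta subunits, which form the catalytic head. *ATP1* had 229.9 ± 16.1 FPKM in the treated knockout against 139.6 ± 9.94 FPKM in the untreated knockout, and 249 ± 28.9 FPKM in the treated wild type against 193 ± 17.9 FPKM in the untreated wild type (mean ± SD, n = 3 each). It rose 1.64-fold in the knockout (log2 0.72 ± 0.12, SE, limma adjusted *p* = 2.8e-04) and had 0.36 in log2 in the wild type, which was not called (adjusted *p* = 0.016). *ATP2* had 445 ± 23.4 and 336 ± 35.2 FPKM in the treated and untreated knockout, and 409 ± 26.1 and 367 ± 24.9 FPKM in the treated and untreated wild type, a rise of 0.41 in log2 in the knockout and 0.15, not called, in the wild type. Of the central stalk genes, *ATP3* (gamma) and *ATP16* (delta) rose by 0.67 and 0.70 in the knockout, with 0.39 (called) and 0.33 (not called) in the wild type, and the short *ATP15* (epsilon) rose by 1.26 in the knockout, with 0.87 in the wild type (adjusted *p* = 0.0102). The peripheral stalk genes *ATP4*, *ATP5* and *ATP7* rose by 0.72, 0.56 and 0.68 in the knockout, and had 0.35, 0.37 and 0.39 in the wild type, none of these called without the block. *ATP14*, another stalk gene, and *ATP18*, for a small membrane subunit, were called in neither strain, with 0.39 and 0.51 in the knockout and 0.31 and 0.29 in the wild type, although *ATP14* was called in the knockout with the block (adjusted *p* = 0.0044). The other small membrane subunits, *ATP17* and *ATP19*, rose by 0.69 and 0.95 in the knockout, with 0.62 (called) and 0.51 (not called) in the wild type. Several of these calls were lost when any 1 of several libraries was left out. In the knockout *ATP2*, *ATP4* and *ATP5* were each lost without any 1 of knockout libraries 4, 5 and 6 (adjusted *p* up to 0.031). *ATP2* and *ATP5* were also lost without knockout library 3, and *ATP2* and *ATP4* without knockout library 2. In the wild type *ATP3* was lost without any 1 of 9 libraries, all but knockout libraries 2 and 6 and wild-type library 1 (adjusted *p* up to 0.036). The wild-type call of *ATP17* was lost without wild-type library 2, 3 or 4 (adjusted *p* up to 0.013).

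The gene of the ATP synthase inhibitor had larger changes than the subunit genes. *INH1*, at chrIV:135179-135436 (+ strand) in R64, encodes a small protein that blocks ATP hydrolysis by the enzyme when the proton gradient is lost. It had 437, 452 and 345 FPKM in the treated knockout and 107, 90.2 and 58.6 FPKM in the untreated knockout, and 850.1, 660.4 and 659 FPKM in the treated wild type and 229, 246 and 260.0 FPKM in the untreated wild type, and all 4 groups were apart from one another. The rise with rapamycin was 4.88-fold in the knockout (log2 2.29 ± 0.20, SE, limma adjusted *p* = 4.0e-06) and 2.92-fold in the wild type (log2 1.55 ± 0.20, adjusted *p* = 4.7e-05). *STF1*, a related inhibitor gene outside the 41, rose by 3.12 ± 0.10 in log2 in the knockout and 2.48 ± 0.10 in the wild type.

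The 3 NADH dehydrogenase genes, *NDI1* at chrXIII:28266-29807 (- strand), *NDE1* at chrXIII:554793-556475 (- strand) and *NDE2* at chrIV:303211-304848 (+ strand) in R64, gave 3 patterns. *NDI1*, for the internal enzyme, rose in both strains, with 127, 90.7 and 102 FPKM in the treated knockout and 43.4, 32.7 and 37.2 FPKM in the untreated knockout, and 118, 112 and 124 FPKM in the treated wild type and 43.5, 51.8 and 68.0 FPKM in the untreated wild type (log2 1.47 ± 0.17 in the knockout and 1.13 ± 0.17 in the wild type, SE, limma adjusted *p* = 2.6e-05 and 1.4e-04). *NDE2*, the minor external enzyme, rose as well and had the lowest levels of all members. It had 16.7, 12.3 and 11.7 FPKM in the treated knockout and 3.91, 3.37 and 3.11 FPKM in the untreated knockout, and 51.3, 44.7 and 46.2 FPKM in the treated wild type and 6.40, 5.41 and 6.10 FPKM in the untreated wild type, which is a rise of 3.23-fold in the knockout and 6.94-fold in the wild type (limma adjusted *p* = 3.7e-06 and 5.7e-08). The low values correspond to about 44.6 to 57.4 reads per library in the untreated knockout, at the implied depth. *NDE1*, the major external enzyme, went the other way. It had 237, 184 and 164 FPKM in the treated knockout and 342, 187 and 249.7 FPKM in the untreated knockout, and 131, 111 and 111 FPKM in the treated wild type and 198, 189 and 205 FPKM in the untreated wild type, and fell 1.67-fold in the wild type (log2 -0.74 ± 0.20, SE, limma adjusted *p* = 0.0067), with -0.39 ± 0.20 in the knockout (adjusted *p* = 0.11). In the wild type the groups were apart and the knockout groups overlapped, since untreated knockout library 3 was below treated library 2. The wild-type call was lost without any 1 of 8 libraries, all but knockout libraries 1, 2, 3 and 6 (adjusted *p* up to 0.023). As a share of the summed FPKM of the external pair, *NDE2* was 6.56%, 6.27% and 6.65% in the treated knockout against 1.13%, 1.77% and 1.23% in the untreated knockout, and 28.1%, 28.7% and 29.3% in the treated wild type against 3.13%, 2.79% and 2.89% in the untreated wild type. The share of *NDE2* was thus highest in the treated wild type, with no overlap between any of the groups.

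**Figure D3:**
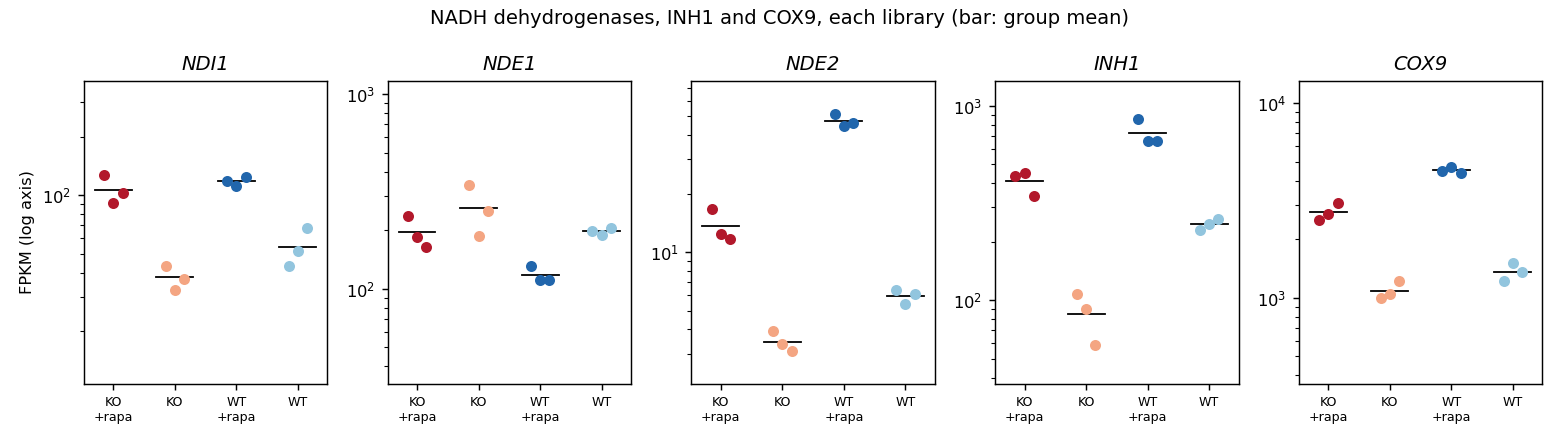
FPKM (vertical log axes, each panel with its own range of equal span) of *NDI1*, *NDE1*, *NDE2*, *INH1* and *COX9* in each library, by group from left to right: treated knockout, untreated knockout, treated wild type, untreated wild type; bars mark group means. *NDE2* separates the treated knockout (11.7 to 16.7 FPKM) from the treated wild type (44.7 to 51.3 FPKM), and *NDE1* is the only panel with higher untreated than treated means.

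The isoform pairs were set side by side because the members of a pair fill the same place in the chain. In R64 *COX5A* is at chrXIV:531725-532186 (+ strand) and *COX5B*, which has an intron, at chrIX:155222-155765 (+ strand), while *CYC1* is at chrX:526335-526664 (+ strand) and *CYC7* at chrV:79636-79977 (- strand). *COX5A* had 245, 356 and 326 FPKM in the treated knockout and 219.8, 222 and 211 FPKM in the untreated knockout, and 268, 234 and 303 FPKM in the treated wild type and 209.6, 196 and 279 FPKM in the untreated wild type. *COX5B* had 619, 634 and 682 FPKM in the treated knockout and 126, 80.2 and 88.2 FPKM in the untreated knockout, and 1148, 981 and 943 FPKM in the treated wild type and 278, 213 and 232 FPKM in the untreated wild type. All libraries had *COX5A* within a range of less than 2-fold, and no group of it was called against another, save treated against untreated knockout with consecutive numbers as a block (adjusted *p* = 0.0079), whereas *COX5B* separated the 4 groups completely. With rapamycin *COX5B* rose 6.64-fold in the knockout (log2 2.73 ± 0.17, SE, limma adjusted *p* = 3.7e-07) and 4.25-fold in the wild type (log2 2.09 ± 0.17, adjusted *p* = 9.3e-07). *COX5A* had log2 fold changes of 0.49 ± 0.17 (adjusted *p* = 0.026) and 0.24 ± 0.17 (adjusted *p* = 0.23), the wild-type value being -0.05 with median-ratio scaling. The log2 ratio of *COX5A* over *COX5B* per library was -1.08 ± 0.25 in the treated knockout against 1.17 ± 0.33 in the untreated knockout, and -1.93 ± 0.26 in the treated wild type against -0.09 ± 0.34 in the untreated wild type (mean ± SD, n = 3 each). Treated libraries therefore had more *COX5B* than *COX5A* in both strains, 64.03% to 71.7% of the pair in the knockout and 75.7% to 81.1% in the wild type. Among untreated libraries *COX5B* made up 26.5% to 36.4% of the pair in the knockout and 45.4% to 57.0% in the wild type. All 4 comparisons of this ratio separated the groups, with an exact two-sided permutation *p* of 0.10 each, the smallest that 3 against 3 libraries allow.

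*CYC1* had 448, 820.5 and 538 FPKM in the treated knockout and 375, 345 and 285 FPKM in the untreated knockout, and 579, 454 and 427 FPKM in the treated wild type and 327, 370.3 and 411 FPKM in the untreated wild type. *CYC7* had 131, 80.7 and 69.2 FPKM in the treated knockout and 14.9, 11.6 and 12.2 FPKM in the untreated knockout, and 213, 125 and 166 FPKM in the treated wild type and 37.6, 39.2 and 53.3 FPKM in the untreated wild type. *CYC1* remained the more abundant isoform in every library. *CYC7* rose 6.59-fold with rapamycin in the knockout (log2 2.72 ± 0.25, SE, limma adjusted *p* = 5.0e-06) and 3.77-fold in the wild type (log2 1.91 ± 0.25, adjusted *p* = 4.5e-05). *CYC1* rose by 0.80 ± 0.21 in log2 in the knockout (adjusted *p* = 0.0067), a call lost without any 1 of knockout libraries 3, 4, 5 and 6 and wild-type library 3 (adjusted *p* up to 0.03), with median-ratio scaling and with consecutive numbers as a block (adjusted *p* = 0.012), and had 0.39 ± 0.21 in the wild type (adjusted *p* = 0.13). The log2 ratio of *CYC1* over *CYC7* was 2.68 ± 0.81 in the treated knockout against 4.59 ± 0.17 in the untreated knockout, and 1.55 ± 0.27 in the treated wild type against 3.07 ± 0.14 in the untreated wild type (mean ± SD, n = 3 each, exact two-sided permutation *p* = 0.10 for both). *CYC7* made up 8.96% to 22.7% of the pair in the treated knockout against 3.26% to 4.10% in the untreated knockout, and 21.6% to 28.0% in the treated wild type against 9.57% to 11.5% in the untreated wild type. The wide spread in the treated knockout came from library 2, whose *CYC7* was the highest and *CYC1* the lowest of its group.

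**Figure D4:**
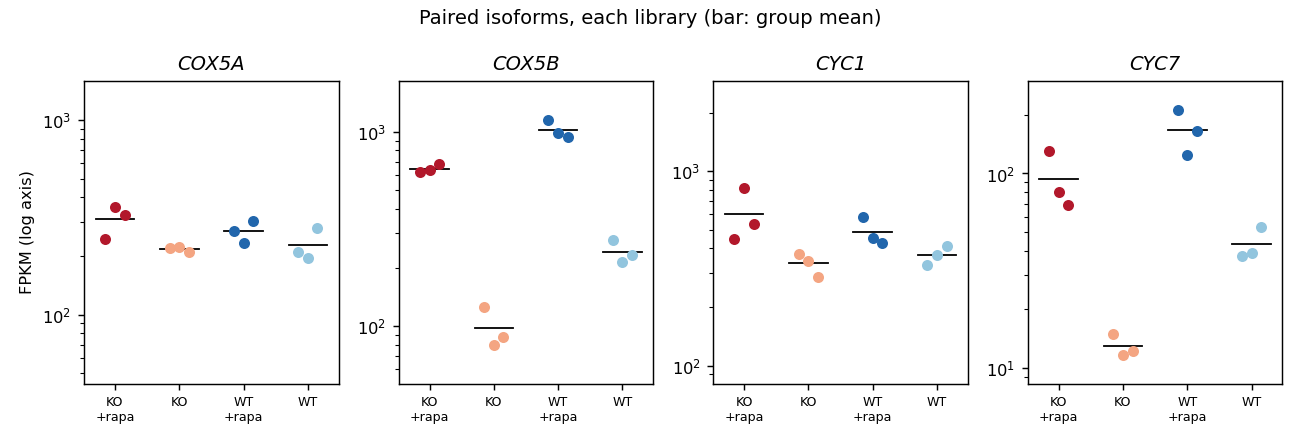
FPKM (vertical log axes of equal span) of the isoform genes *COX5A* and *COX5B* of complex IV and *CYC1* and *CYC7* of cytochrome *c* in each library, by group from left to right: treated knockout, untreated knockout, treated wild type, untreated wild type; bars mark group means. *COX5B* spans 80.2 to 1148 FPKM and *CYC7* 11.6 to 213 FPKM over the libraries, while *COX5A* stays between 196 and 356 FPKM.

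Other hypoxic genes gave mixed directions. Of 8 such genes outside the 41, 1 (12.5%) was called higher and 1 lower with rapamycin in the knockout, where 36.4% of all tested features were called higher and 10.3% lower, and 1 was called higher and 4 (50.0%) lower in the wild type, against 35.9% and 16.3%. *ANB1*, a hypoxic translation factor gene, had -0.75 ± 0.33 in the knockout, not called, and fell by 1.49 ± 0.33 in log2 in the wild type. *AAC3*, the hypoxic ADP/ATP carrier, was lower in both strains, at -0.78 ± 0.17 and -1.35 ± 0.17 (log2 ± SE). The sterol gene *HMG2* rose, by 0.77 ± 0.10 and 0.82 ± 0.10. *ROX1*, the repressor of hypoxic genes, had 0.12 ± 0.28 in the knockout and -0.14 ± 0.28 in the wild type and was not called. *HAP4* had -0.59 ± 0.26 and -0.72 ± 0.26 (adjusted *p* = 0.067 and 0.029), and *HAP1*, the heme-responsive activator, rose by 0.53 ± 0.10 and 0.51 ± 0.10. Of 12 regulator genes, 2 (16.7%) were called higher and 0 lower in the knockout, and 2 higher and 2 lower in the wild type, and with median-ratio scaling 0 were called higher and 3 and 4 lower. The 2 higher were *HAP5* (0.96 in the knockout and 0.82 in the wild type) and *HAP1*, and the 2 lower were *MOT3* (-1.001) and *TUP1* (-0.73).

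The upstream sequences of these genes hold different short motifs. They are shown here from the R64 genome sequence of RefSeq for the isoform pairs, the external dehydrogenases and *INH1*. Of these, *COX5A*, *CYC1* and *NDE1* changed less with rapamycin than *SDH4*, *QCR9* and *COX9*, whose sequences are not shown. All protein-coding genes were searched over 500 bases before the start codon, on both strands, for CCAAT (the Hap complex core, ATTGG on the other strand), ATTGTT (the core of the Rox1 site, AACAAT on the other strand) and AGGGG (the stress response element bound by Msn2 and Msn4, CCCCT on the other strand). No letters can match 2 of these at the same start, though neighboring matches may overlap. CCAAT was found upstream of 37 of the 41 members (90.2%), against 62.4% of 6000 genes, ATTGTT upstream of 23 members (56.1%), against 48.9%, and AGGGG upstream of 21 members (51.2%), against 34.1%. CCAAT was present in all 13 ATP synthase and all 4 complex II genes. In the windows below, in the direction of the gene, capitals mark the motif.

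The 2 CCAAT windows of the aerobic *COX5A* and 1 of the 2 of *COX5B* read:
*COX5A*, chrXIV:531543-531572, + strand: tgcaaaaatcgtCCAATagacgttttcctc
*COX5A*, chrXIV:531568-531597, + strand: tcctcgtttgtgATTGGccctacgttttgc
*COX5B*, chrIX:155138-155167, + strand: ttaaacaatagaCCAATtatttcaatttaa
*COX5A* had 1 Rox1 core and no AGGGG in its 500 bases. *COX5B* had 3 Rox1 cores and an AGGGG match in either orientation, and 1 of the cores and both matches are given:
*COX5B*, chrIX:154986-155015, + strand: ttttgattttgtATTGTTcgataaggcaac
*COX5B*, chrIX:155032-155061, + strand: aaatgtcatggaCCCCTtaaaattactgag
*COX5B*, chrIX:155048-155077, + strand: ttaaaattactgAGGGGttcagaaaatacc
*CYC1* had no match to CCAAT or ATTGTT as spelled here and no AGGGG, while *CYC7* had 3 AGGGG matches, 1 CCAAT and no ATTGTT, with these AGGGG windows:
*CYC7*, chrV:80296-80325, - strand: cgggttatagcgCCCCTtattgaattattt
*CYC7*, chrV:80236-80265, - strand: agtcccccgccgAGGGGtcttttcccacct
*CYC7*, chrV:80152-80181, - strand: taagtggccgcaAGGGGcaaagacaaaggc
*INH1* had CCAAT at 2 places, 1 Rox1 core and AGGGG at 2 places, of which the AGGGG windows read:
*INH1*, chrIV:134888-134917, + strand: cgcggcagaataAGGGGaggctgctgcggg
*INH1*, chrIV:135025-135054, + strand: cgttagagaaggAGGGGttcataacttgac
*NDE2* had 2 AGGGG matches and neither of the other motifs, and *NDE1* had CCAAT 3 times, 1 Rox1 core and no AGGGG, with both *NDE2* windows and 1 CCAAT window of *NDE1* given:
*NDE2*, chrIV:303046-303075, + strand: gcctacaggcctCCCCTaataagtcagccc
*NDE2*, chrIV:303061-303090, + strand: ctaataagtcagCCCCTccctttggagtgc
*NDE1*, chrXIII:556560-556589, - strand: tattctggtaaaCCAATtaaagagagaaaa
The genes shown were picked after their values were seen. Among other members, AGGGG was also found upstream of *ATP2* and *QCR6*, with 0.15 and 0.24 in log2 in the wild type. It was found upstream of *SDH4*, with 1.59, and not upstream of *COX9* or *COX6*, with 1.74 and 1.14. Whether the matches go with the size of the rise was not tested. A match is a run of letters in this window and was not tested as a binding site.

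Between the strains, few members passed the test, and those called were lower in the knockout. With rapamycin 0 of 41 members were called higher and 2 (4.88%) lower in the knockout. Of all tested features 8.28% were called higher and 5.79% lower, so the share of members called lower was no larger than over all features. Without rapamycin 0 were called higher and 3 (7.32%) lower, where 0.0308% of all tested features were called higher and 0.554% lower. The log2 fold change of knockout over wild type was below 0 for 31 members with rapamycin, where 18 of the 41 changed sign once all libraries were scaled to the same sum, and for 40 without it, where 3 changed sign. Of all features, 47.0% were above 0 with rapamycin and 36.5% without it. The median over members was -0.18 with rapamycin and -0.38 without it, against medians of -0.02 and -0.08 over all features, and with median-ratio scaling it was -0.14 and -0.27. With libraries scaled to the same sum, the median with rapamycin changed sign, to 0.077. Without rapamycin the median lay between -0.44 and -0.24 in the alternatives. The treated and the untreated strain comparisons use different libraries, but each shares its libraries with the rapamycin comparisons above. *MFA1*, though not called, and the total of FPKM differed between the strains as well, and their part in these differences was not tested.

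**Figure D5:**
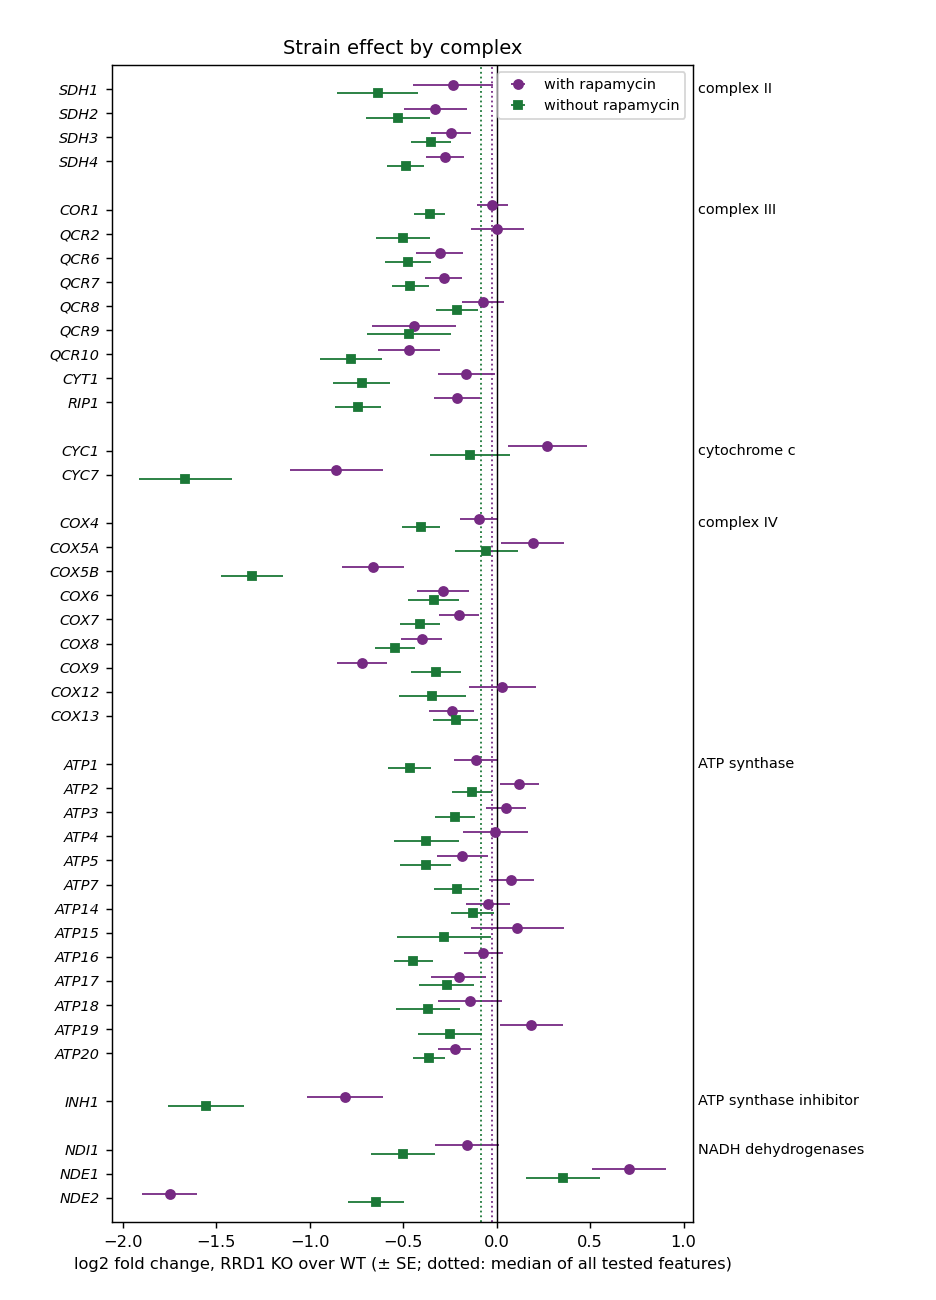
Log2 fold change (horizontal axis, ± SE) of each of the 41 members, listed by class, for the *RRD1* knockout over the wild type with rapamycin (purple circles) and without it (green squares); dotted lines mark the medians of all tested features, -0.02 and -0.08. *CYC7*, *COX5B* and *INH1* are the lowest without rapamycin, *NDE2* is the lowest with it, and *NDE1* is the only member above 0 in both.

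With rapamycin the 2 called members were *NDE2* and *COX9*. *NDE2* had 16.7, 12.3 and 11.7 FPKM in the treated knockout against 51.3, 44.7 and 46.2 FPKM in the treated wild type, 3.36-fold lower in the knockout (log2 -1.75 ± 0.15, SE, limma adjusted *p* = 4.7e-05), and the call held in all 22 alternatives. Without rapamycin the difference was -0.65 ± 0.15 (adjusted *p* = 0.041). *COX9* had 2498, 2693 and 3074 FPKM in the treated knockout against 4482, 4729 and 4374 FPKM in the treated wild type, 1.65-fold lower (log2 -0.72 ± 0.13, adjusted *p* = 0.0027), and its call was lost without knockout library 4 or wild-type library 4 (adjusted *p* = 0.014 and 0.011), without knockout libraries 1 and 2 together (0.011), with only the libraries of the contrast or with same-numbered libraries of the strains as a block (adjusted *p* = 0.021 for both), and with libraries scaled to the same sum, where its log2 value was -0.46 (adjusted *p* = 0.043) and *NDE1* was called instead. *COX5B*, *INH1*, *COX8* and *CYC7* had -0.66, -0.81, -0.40 and -0.86, but were not called (adjusted *p* = 0.014, 0.013, 0.02 and 0.027). *CYC7* overlapped between the strains, because treated knockout library 2 was above treated wild-type library 4. *NDE1* was the member with the largest positive value, 0.71 ± 0.20 (adjusted *p* = 0.023), with 237, 184 and 164 FPKM in the treated knockout against 131, 111 and 111 FPKM in the treated wild type and no overlap. Without untreated knockout library 1 the count of called members was 5, with *COX5B*, *INH1* and *NDE1* added.

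Without rapamycin the 3 called members were *COX5B*, *CYC7* and *INH1*. *COX5B* was 2.48-fold lower in the knockout (log2 -1.31 ± 0.17, SE, limma adjusted *p* = 0.0035), *CYC7* 3.17-fold (log2 -1.66 ± 0.25, adjusted *p* = 0.0079) and *INH1* 2.93-fold (log2 -1.55 ± 0.20, adjusted *p* = 0.004). The *CYC7* values of the untreated knockout correspond to only about 16.8 to 22.6 reads per library at the implied depth. The 3 knockout libraries lay below the 3 wild-type libraries for each of them. The calls sat close to the threshold: without knockout library 3, wild-type library 1 or wild-type library 5 all 3 were lost, and without knockout library 5 or wild-type library 3 only 1 stayed (adjusted *p* of the lost calls up to 0.046). *CYC7* lost its call without any 1 of 9 libraries, all but treated libraries 2 and 6 of the knockout and 4 of the wild type. Without knockout libraries 1 and 2 together, 5 members were called, the same 3 and *QCR10* and *RIP1*. At an adjusted *p* under 0.05 the count was 13, among them *SDH4*, 5 of the 9 complex III genes and *NDE2*. The share of all tested features at that threshold is not given here, so this count cannot be read against it. The aerobic isoforms had smaller differences, with -0.05 ± 0.17 for *COX5A* and -0.14 ± 0.21 for *CYC1* in log2 (adjusted *p* = 0.9 and 0.76). The ratio of *COX5A* over *COX5B* was accordingly higher in the knockout, by 0.86 in log2 with rapamycin and 1.25 without it (exact two-sided permutation *p* = 0.10 for both, n = 3 each). The ratio of *CYC1* over *CYC7* was higher by 1.13 with rapamycin, where the groups overlapped (exact permutation *p* = 0.20), and by 1.52 without it (exact permutation *p* = 0.10).

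Whether the strain difference changed with rapamycin was tested as the difference of both effects. Without a block no member was called, where 0.077% of all tested features were called higher and 0.185% lower. An unadjusted *p* under 0.05 was found for 9 of the 41. The share of all tested features at that unadjusted threshold is not given here, so no excess can be read from it. *NDE2* came closest, with a difference of -1.10 ± 0.21 in log2 (limma adjusted *p* = 0.03), which is also the difference between its rise in the knockout and that in the wild type. With consecutive numbers as a block *NDE2* was called (adjusted *p* = 0.0095), where 0.908% of all tested features were called higher and 0.369% lower. *CYC7*, *INH1* and *COX5B* had the opposite sign, at 0.81 ± 0.35, 0.74 ± 0.29 and 0.65 ± 0.24, with adjusted *p* of 0.27, 0.21 and 0.18. For these 3 genes the values in the treated knockout remained below those of the treated wild type on average.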

How the data were processed

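Total RNA of 12 cultures was made into TruSeq libraries and sequenced as single reads, which the authors aligned with TopHat and quantified with Cufflinks. The deposited values are FPKM, 1 column per library; versions, genome build, annotation and any scaling between libraries are not given in the sources used here. The values sum to 1848118 to 2584116 per library, 494 of 7126 features are at 0 throughout, and 0 columns were unmapped. Steps of low values implied 8440000 to 11670000 mapped reads per library, assuming fragments of 200 ± 80 nt. The search covered a range of depths set in advance, and depths outside it were not compared. At the implied depth 60.5% to 76.9% of those values came out within 0.05 of a whole read, so this depth is approximate.

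Values were tested as log2(FPKM + 1) with limma 3.58.1 in R 4.3.3: 4 group means, 12 libraries, 8 residual degrees of freedom, trended empirical Bayes, Benjamini-Hochberg adjustment over the 6497 features whose mean FPKM reached 1. The script was tested on simulated data. Isoform ratios were compared by exact permutation in scipy. Positions and sequences are from R64 (RefSeq), joined by name, so the authors' annotation may differ. Repeats were on different days, and the labels do not tie library numbers to days. Deviations from the group means correlated at 0.17 to 0.31 in all 6 pairs of consecutive numbers within a strain and at -0.20 to -0.04 in other pairs, a pairing taken from the data; that block is given where it changes a call.

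The members and gene lists were chosen with earlier results of these data known. All members are named; of other lists, counts and the 2 largest called rises and falls of each comparison, plus *HAP4*, *ROX1* and *HAP1*. Alternatives were a pseudocount of 0.1, no filter, a mean FPKM of at least 10, median-ratio, equal-sum and quantile scaling, only the libraries of the contrast, no trend, a replicate block, each library left out, and an adjusted *p* under 0.05.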

Additional observations from a re-analysis of the deposited data

How the results depend on the processing

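The 67 calls of single members gave 1474 values under the alternatives, of which 1360 kept their direction and call, 114 lost the call and 0 changed direction. With rapamycin the 2 members called between the strains became 1 with same-numbered libraries of the strains as a replicate block, 1 with only the libraries of the contrast, 6 with quantile normalization, 7 at an adjusted *p* under 0.05, and 1 to 5 without single libraries. Without rapamycin the 3 called members became 0 with the replicate block, 0 with only the libraries of the contrast, 5 without knockout libraries 1 and 2 together (chosen after seeing the data), 13 at an adjusted *p* under 0.05, and 0 to 3 without single libraries. The difference of strain effects had 0 called members with same-numbered libraries as a replicate block, 1 with consecutive numbers as a replicate block (*NDE2*, chosen after seeing the data), 1 with quantile normalization (*NDE2*), 1 at an adjusted *p* under 0.05, and 0 without any single library. The replicate block leaves 4 residual degrees of freedom. Same-numbered libraries of the strains had deviations from their group means correlated at -0.18 to 0.14. With 3 libraries per group these correlations cannot show whether same-numbered cultures were grown on the same day. The rapamycin counts stayed within 1.5 times, at 24 to 40 in the knockout (31 to 36 without single libraries) and 21 to 34 in the wild type (23 to 27). The share of all tested features called is given only for the main fit and for consecutive numbers as a block. Scaling to the same sum turned the median over members of the treated strain comparison to 0.077. *MFA1* takes 6.77% to 16.5% of that sum in the treated knockout and 20.6% to 27.5% in the treated wild type, and the cause was not tested.

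Without single libraries the log2 ratio of *COX5A* over *COX5B* changed with rapamycin by -2.43 to -2.10 in the knockout and -2.01 to -1.67 in the wild type, and differed between strains by 0.73 to 1.004 with rapamycin and 1.09 to 1.44 without it. That of *CYC1* over *CYC7* changed by -2.24 to -1.46 and -1.68 to -1.43, and differed between strains by 0.80 to 1.58 and 1.43 to 1.60. None changed sign. At the implied depth *CYC7* rests on about 16.8 to 22.6 reads per library in the untreated knockout, and counting error there was not separated from the spread between libraries.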

Other observations

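Genes that serve the same chain but are not among the 41 were counted from lists of assembly factors, paralogs, coenzyme Q synthesis, electron donors and carriers. Over all tested features 36.4% were called higher and 10.3% lower with rapamycin in the knockout, and 35.9% and 16.3% in the wild type, against which these counts are read. Of 29 assembly and translation factors of complex IV, 17 (58.6%) were called higher with rapamycin in the knockout and 13 (44.8%) in the wild type, with 0 lower, and with median-ratio scaling 9 and 7 were higher and 3 lower in the wild type, led by *COX20* (1.57 and 1.44 in log2) and *COA4* (1.53 and 1.25). Of 12 for complex III and cytochrome *c*, 4 (33.3%) were called higher in each strain, no more than over all features, with *CBP4* at 1.33 and 1.44, *CYT2* at 0.57 in the knockout and *CYC3*, the heme lyase of cytochrome *c*, at 1.37 in the wild type. With median-ratio scaling 1 was called higher in the knockout and 2 in the wild type. Of 16 for the ATP synthase, 12 (75.0%) were called higher in the knockout and 11 (68.8%) in the wild type, with *STF1* and *STF2* (1.77) leading in the knockout and *STF1* and *ATP22* (1.71) in the wild type. With median-ratio scaling 7 were called higher in the knockout, and 6 higher and 1 lower in the wild type. *STF1* was lower in the knockout than in BY4730 both with rapamycin (-0.44 ± 0.10, SE, limma adjusted *p* = 0.00963, and 0.013 with median-ratio scaling, where the call was lost) and without it (-1.08 ± 0.10, adjusted *p* = 0.0013), and *AEP1*, for translation of a mitochondrially encoded subunit, was lower with rapamycin (-0.52).

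Of 9 assembly factors and paralogs of complex II, 7 (77.8%) were called higher in the knockout and 8 (88.9%) in the wild type. With median-ratio scaling these counts were 5 and 6. *SHH4*, a paralog of *SDH4*, had 59.7, 69.8 and 72.6 FPKM in the treated knockout and 16.4, 17.1 and 18.1 FPKM in the untreated knockout, and 225, 179.9 and 202 FPKM in the treated wild type and 22.9, 28.4 and 31.3 FPKM in the untreated wild type, and was lower in the treated knockout than in the treated wild type by -1.57 ± 0.13 in log2 (SE, limma adjusted *p* = 4.0e-05), while *SDH4* itself had -0.28 ± 0.10 (adjusted *p* = 0.065). *SDH6* rose by 2.97 in the knockout and 1.99 in the wild type. Of 3 supercomplex factors and late subunits 2 rose in each strain, *RCF1* (0.67 and 0.70) and *COX26*, a short gene, with 86.2, 135 and 112 FPKM in the treated knockout and 13.8, 4.81 and 23.6 FPKM in the untreated knockout, and 604, 399 and 492 FPKM in the treated wild type and 44.4, 21.3 and 55.1 FPKM in the untreated wild type. *COX26* was 4.46-fold lower in the treated knockout than in the treated wild type (limma adjusted *p* = 0.0066). With median-ratio scaling 1 of the 3 supercomplex factors and late subunits was called higher with rapamycin in each strain. Of 11 coenzyme Q genes 9 (81.8%) were called higher in each strain, or 7 in the knockout and 6 in the wild type with median-ratio scaling. They were led by *COQ4* (1.46 and 1.60) and *COQ11* (1.45 and 1.54). Both of these were lower in the treated knockout than in the treated wild type (-0.68 and -0.65), calls that median-ratio scaling ended (adjusted *p* = 0.0104 and 0.012). Of 5 electron donor and peroxidase genes 4 rose in each strain, among them the lactate dehydrogenases *CYB2* (1.31 and 1.47) and *DLD1* (0.53 and 0.96) and the peroxidase *CCP1* (1.14 in the knockout), and *DLD1* was lower in the treated knockout than in the treated wild type (-0.88). With median-ratio scaling 3 of the 5 were called higher with rapamycin in each strain. Of 7 carriers and pores, 4 (57.1%) were called higher and 1 lower in the knockout and 3 (42.9%) higher and 1 lower in the wild type. With median-ratio scaling 3 were called higher and 1 lower in each strain. *POR1*, the outer membrane porin, rose by 1.95 and 1.80, *PIC2* by 1.28 in the knockout and *AAC1* by 1.02 in the wild type, and *AAC3* was higher in the treated knockout than in the treated wild type (0.73). Of the 7 subunits encoded in mitochondrial DNA, 1 (*OLI1*) passed the filter on low values and it was not called, so these libraries say little about them.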
